A study of Mus musculus with 19 samples.

Results

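Blastoids on day 1 of culture were compared with untreated cells in 2D culture, using 5 of the 19 libraries of the study and all 16304 genes that passed a filter on low counts. The 3 day 1 libraries and the 2 untreated libraries were picked by their labels, and their counts came from 2 tables, one for blastoids and one for 2D culture, joined by gene symbol. All groups came from 1 mouse embryonic stem cell line, TT2, which grows on inactivated embryonic fibroblasts (feeder cells). Day 1 blastoids were aggregates from a 3D microwell culture of 1 day, which the labels also list as given 20 nM pladienolide B (PlaB) for 6 h. A set of 2 libraries of cells kept in 2D culture, given 20 nM PlaB for 6 h after 48 h of seeding, was laid beside the blastoids. The untreated cells stayed in 2D culture for 54 h and received no PlaB. The comparison addresses how much of the expression state of PlaB-treated cells was still seen after a day of blastoid culture. PlaB, the 3D format, the time in culture and the deposited table all change together between day 1 blastoids and untreated cells, so their parts cannot be told apart.

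PlaB binds the SF3B complex, the part of the spliceosome that recognises the branch point of introns, and blocks splicing. Stress of many kinds stabilises p53, which switches on Mdm2, its own inhibitor, and Cdkn1a, a brake on the cell cycle. Blastoids are made to resemble the blastocyst, in which an outer epithelium, the trophectoderm, surrounds the pluripotent epiblast and the primitive endoderm. When cells leave a flat dish for a free aggregate, actin tension and contact with matrix change, and both feed into YAP, a co-activator of TEAD factors. Early embryonic cells also read Nodal, BMP, Wnt and FGF signals, whose activity can be followed through feedback targets such as Lefty2 for Nodal and the Id genes for BMP.

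Libraries were made from polyadenylated RNA with Smart-seq2, a PCR-based full-length method with no molecular identifiers. Totals were 3684787 to 6816649 counts on day 1, 2515381 to 2765115 in PlaB-treated cells and 3909958 to 4118725 in untreated cells. Whether replicates were separate cultures is not in the labels. The p-values therefore reflect only the spread between libraries within groups, which may be technical. That spread was estimated over all 19 libraries, 12 of them from blastoid days 2 to 5. Day 1 replicate 3 stood apart from its partners: its counts differed from theirs at a chi-square statistic per degree of freedom of 21.2 and 19.8, against 5.27 between replicates 1 and 2, 4.19 between the PlaB libraries and 3.84 between the untreated libraries. Stem cell markers were present in every library, Nanog among them. Feeder RNA was present too: the 38 tested fibroblast matrix genes summed to 3371 to 5226 CPM (TMM-scaled counts over the scaled library total) on day 1, 18943 to 22907 CPM in PlaB-treated cells and 15807 to 18043 CPM in untreated cells. In such bulk samples, fewer cells of a type and less RNA per cell cannot be told apart. Macrophage genes summed to 68.9 to 161 CPM on day 1, 323 to 555 CPM in PlaB-treated cells and 159 to 217 CPM in untreated cells.

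Of the 16304 genes, 3702 were higher on day 1 than in untreated cells (22.7%) and 3119 were lower (19.1%), 41.8% in all, at an adjusted p under 0.05, by edgeR's quasi-likelihood test. Day 1 and untreated libraries did not overlap in 65.1% of genes. With a change of at least 2-fold in addition, 3277 were higher (20.1%) and 2232 lower (13.7%). Scaling by total counts alone moved the median log2 fold change of all genes by 0.23 and gave 4458 higher and 2138 lower genes, so the split between directions depends on the scaling. For scale, PlaB-treated cells differed from untreated cells at 2134 higher genes (13.1%) and 2113 lower genes (13.0%), and day 1 blastoids differed from PlaB-treated cells at 3569 higher (21.9%) and 2768 lower genes (17.0%, 38.9% in all). Scaling by total counts gave 4810 higher and 1954 lower genes in the last of these. Without untreated replicate 1, 2440 genes were higher and 1923 lower on day 1, and 944 were higher and 1297 lower in PlaB-treated cells, while without untreated replicate 2 PlaB-treated cells had 1197 higher genes. These comparisons share libraries, so their values are set side by side and not correlated with each other.

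The base composition of the transcript went with the fold change. In genes with under 42% GC the median log2 fold change of day 1 over untreated cells was -0.83, and in genes with 54% GC or more it was 1.56. Spearman's rho between GC content and fold change was 0.54 over 16213 genes, which are not independent replicates, against 0.34 for PlaB-treated over untreated cells. The GC balance of a library was the median log2 deviation of GC-rich genes (above 54% GC) minus that of GC-poor genes (under 42%). Deviations were taken from the mean of each gene over all 19 libraries. This balance was 1.05, 1.14 and 0.49 on day 1, 0.21 and 0.07 in PlaB-treated cells, and -1.0 and -0.83 in untreated cells. Day 1 replicate 3 lay closest to the 2D libraries, and no day 1 library overlapped an untreated one. With this trend taken out of the counts, 2617 genes were higher and 2625 lower on day 1 (16.1% each, 32.2% in all), against 11.3% higher and 11.8% lower in PlaB-treated cells, and 56.7% of the original calls were kept in the same direction. The part of GC content in single results was not tested, and the fold change with the trend removed is given where it ends a call. Counts of list members below are to be read against the shares of all tested genes given here and in the paragraph before.

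**Figure D1:**
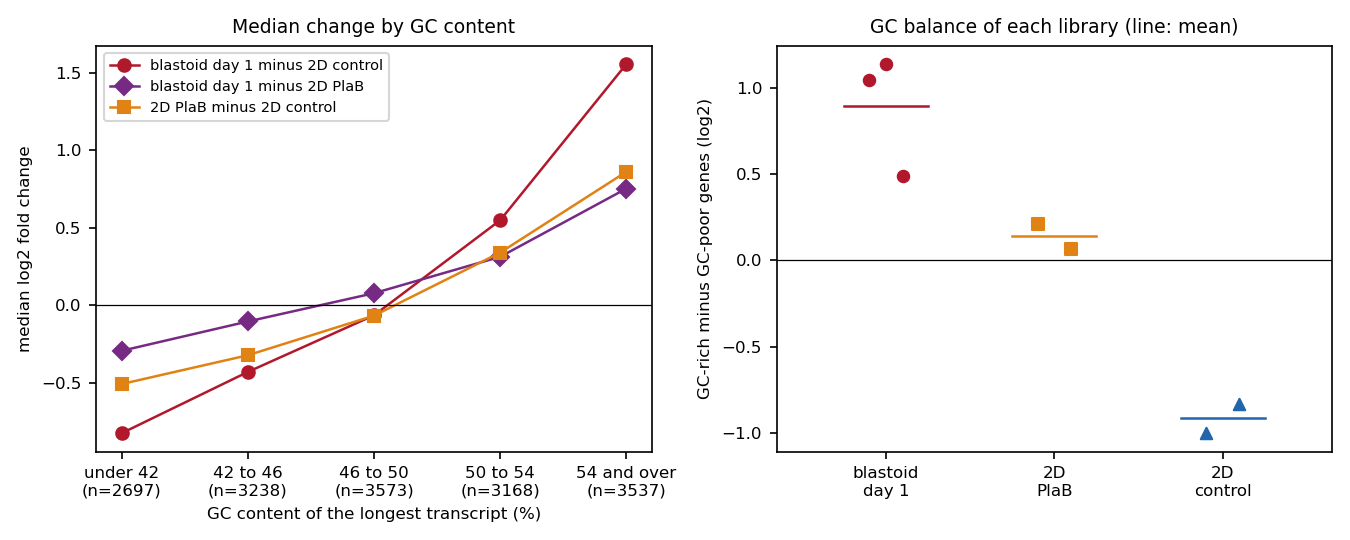
Left, median log2 fold change (vertical axis) of genes grouped by the GC content of their transcript (horizontal axis, percent), for day 1 over untreated cells, PlaB-treated over untreated cells, and day 1 over PlaB-treated cells. Right, GC balance of each library (median log2 deviation from the mean of all libraries, GC-rich minus GC-poor genes), one point per library, with the day 1 libraries at 0.49 to 1.14 and the untreated libraries at -1.0 and -0.83.

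Some genes that PlaB raised in 2D culture, Mdm2, Btg2 and Ddit4l among them, were near the level of untreated cells on day 1. They are not the largest rises under PlaB. The 6 genes named for those (Cyba, Rcn3, Apoe, Selenom, Icam1 and Phlda3) were all higher on day 1 than in untreated cells. The calls of Rcn3 and Icam1 ended when the GC trend was removed. These 6 genes were picked for their rise over the same untreated libraries, so low values there raise the day 1 fold change too. Their shared direction is thus partly set by the choice, and the falls named for PlaB below have the same limit. Mdm2 (chromosome 10, 117688875 to 117710758, GRCm38), which marks p53 for degradation, stood at 199.7, 218 and 209 CPM in the 3 day 1 libraries, 1898 and 1983 CPM in PlaB-treated cells and 210.3 and 245 CPM in untreated cells. Its day 1 libraries overlapped the untreated ones, with a log2 fold change of -0.13 ± 0.22 (95% interval -0.58 to 0.32, adjusted p = 0.672), while PlaB-treated cells differed from untreated cells by 3.09 ± 0.26, adjusted p = 4.37e-08 on the log2 scale. Btg2, an antiproliferative p53 target, had 31.9, 40.4 and 32.6 CPM on day 1, 203 and 163 CPM in PlaB-treated cells and 34.2 and 43.7 CPM in untreated cells. Its log2 fold change was -0.16 ± 0.23 on day 1 (95% interval -0.63 to 0.31, adjusted p = 0.605) against 2.23 for PlaB, so the day 1 difference did not pass the test. Ddit4l, an inhibitor of mTOR signalling, had 21.3, 24.9 and 23.9 CPM on day 1, 104 and 89.7 CPM in PlaB-treated cells and 18.6 and 20.2 CPM in untreated cells, all day 1 libraries lying far below both PlaB libraries. Against untreated cells its log2 fold change was 0.26 ± 0.29 (adjusted p = 0.486). Plk2, a stress-responsive kinase, went below the untreated level: it had 60.2, 72.6 and 58.5 CPM on day 1, 325 and 386 CPM in PlaB-treated cells and 90.0 and 113 CPM in untreated cells (log2 fold change -0.67 ± 0.23, adjusted p = 0.0222). That call was lost without untreated replicate 2, where the log2 fold change was -0.49 with an adjusted p of 0.24, and also without day 1 replicate 1 (adjusted p = 0.058) or 3 (0.056), and with scaling by total counts (-0.42, adjusted p = 0.16) or no filter on low counts (-0.63, adjusted p = 0.0992).

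The p53 targets as a list were divided on day 1. Of 39 tested targets, 13 were higher and 13 lower on day 1 than in untreated cells, with a median log2 fold change of 0.051, against 16 higher and 2 lower in PlaB-treated cells. With the GC trend removed 8 were higher and 7 lower on day 1, against 18 higher and 4 lower in PlaB-treated cells. Compared directly, 20 of them were lower and 8 higher on day 1 than in PlaB-treated cells. Phlda3, which restrains the kinase Akt, had 45.5, 55.9 and 21.6 CPM on day 1, 27.2 and 15.8 CPM in PlaB-treated cells and 1.02 and 1.89 CPM in untreated cells (log2 fold change 4.80 ± 0.53, adjusted p = 1.46e-07). Dcxr, a carbonyl reductase of sugars, had 42.7, 50.3 and 43.6 CPM on day 1, 38.5 and 28.8 CPM in PlaB-treated cells and 2.29 and 2.43 CPM in untreated cells (log2 fold change 4.25 ± 0.38, adjusted p = 1.16e-08). For both genes every day 1 library lay above every untreated library, which the rule that named Phlda3 required. Trp53, which encodes p53 itself, had 375, 331 and 299 CPM on day 1, 85.1 and 77.8 CPM in PlaB-treated cells and 27.8 and 46.4 CPM in untreated cells (log2 fold change 3.18 ± 0.46, adjusted p = 1.29e-05). Cdkn1a had 195, 206 and 167 CPM on day 1, 241 and 260.4 CPM in PlaB-treated cells and 50.7 and 94.7 CPM in untreated cells (log2 fold change 1.38 ± 0.37, adjusted p = 0.00439), but with the GC trend removed its log2 fold change was 0.31, adjusted p = 0.449, and without untreated replicate 1 it was 1.01 with an adjusted p of 0.12. Bax, which opens the mitochondrial membrane in apoptosis, was higher by 2.57 ± 0.41, adjusted p = 2.35e-05, a call that also ended with the GC trend removed (0.089, adjusted p = 0.854). Rps27l, a ribosomal protein paralog induced by p53, was lower, at -1.78 ± 0.27, adjusted p = 1.16e-05. Gadd45a, a DNA damage response gene, was lower too, at -1.61 ± 0.30, adjusted p = 0.000102. Rrm2b, a subunit of ribonucleotide reductase, was likewise lower, at -1.84 ± 0.30, adjusted p = 2.31e-05. PlaB-treated cells had Gadd45a higher than untreated cells (log2 fold change 1.11 ± 0.32, adjusted p = 0.0119), the reverse of day 1.

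Several genes that PlaB lowered were again near the untreated level on day 1. Rad1, a clamp subunit of the DNA damage checkpoint, had 76.8, 69.1 and 80.2 CPM on day 1, 6.48 and 8.69 CPM in PlaB-treated cells and 97.6 and 84.5 CPM in untreated cells. Its log2 fold change over untreated cells was -0.27 ± 0.29 on day 1 (95% interval -0.86 to 0.32, adjusted p = 0.469) and -3.58 ± 0.39, adjusted p = 7.28e-07 for PlaB. Zc3h8, a zinc finger protein, had 26.7, 24.7 and 36.6 CPM on day 1, 3.46 and 1.58 CPM in PlaB-treated cells and 42.1 and 32.9 CPM in untreated cells, with a day 1 log2 fold change of -0.35 ± 0.24 (adjusted p = 0.247). Both PlaB libraries lay far below all others for these genes, and the day 1 estimates were less than 2-fold below untreated cells. Pawr, a pro-apoptotic protein, had 22.8, 19.5 and 26.5 CPM on day 1 and 3.46 and 2.77 CPM in PlaB-treated cells, against 40.5 and 38.6 CPM in untreated cells, with a day 1 log2 fold change of -0.78 ± 0.34 (adjusted p = 0.0652). Its day 1 and untreated libraries did not overlap, and it passed as lower with the GC trend removed (-2.17, adjusted p = 0.00106), with upper-quartile scaling (-0.89, adjusted p = 0.0373) and with only the libraries compared (-0.83, adjusted p = 0.00827). Zfp808, a zinc finger gene, had 61.6, 52.2 and 132 CPM on day 1, 10.4 and 7.90 CPM in PlaB-treated cells and 116 and 79.6 CPM in untreated cells. Its day 1 log2 fold change of -0.25 ± 0.33, adjusted p = 0.56, changed sign with the GC trend removed (0.65, adjusted p = 0.0381). Srek1ip1, a partner of a splicing regulator, remained lower on day 1 at -1.54 ± 0.26, adjusted p = 4.65e-05, as did Zbed4, a zinc finger protein, at -1.38 ± 0.32, adjusted p = 0.00106, where the PlaB log2 fold changes were -3.98 for Srek1ip1 and -3.75 for Zbed4. Cenpe, a kinesin that ties chromosomes to spindle fibres, had 223, 165 and 274 CPM on day 1, 70.4 and 60.1 CPM in PlaB-treated cells and 282 and 252 CPM in untreated cells, the PlaB libraries being far below all others. Its day 1 log2 fold change was -0.28 ± 0.23 (adjusted p = 0.346), against -2.04 for PlaB. Prdm14, a repressor that guards naive pluripotency, had 8.23, 8.93 and 8.32 CPM on day 1, 0.432 and 0.79 CPM in PlaB-treated cells and 8.67 and 13.0 CPM in untreated cells (log2 fold change -0.35 ± 0.42, adjusted p = 0.528). Zinc finger genes of the KRAB type, which silence transposons, were lower in 22 of 55 tested members and higher in 2 on day 1, with 26 lower and 2 higher in PlaB-treated cells. With the GC trend removed the day 1 counts were 2 lower and 8 higher, and their median log2 fold change moved to 0.23, from -0.57 before.

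**Figure D2:**
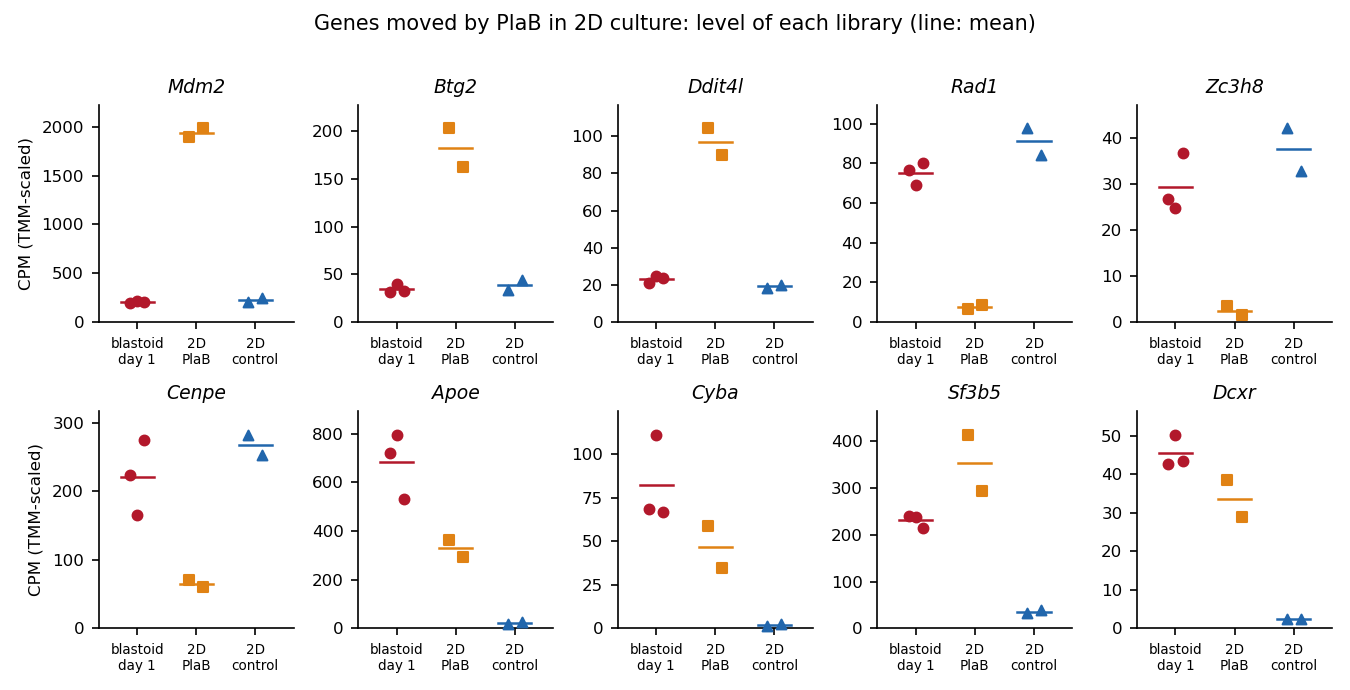
CPM per library (vertical axis, linear from 0, scaled per gene) of 10 genes that differ between PlaB-treated and untreated cells, with day 1 blastoids, PlaB-treated cells and untreated cells from left to right, one point per library and a line at the mean. Mdm2, Btg2, Ddit4l, Rad1, Zc3h8 and Cenpe stand nearer to untreated cells on day 1 than PlaB-treated cells do, while Apoe, Cyba, Sf3b5 and Dcxr stand above the untreated libraries in both.

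A further group was high both in PlaB-treated cells and on day 1. Apoe, a lipid carrier that is also a primitive endoderm marker, had 719, 796 and 533 CPM on day 1, 362 and 295 CPM in PlaB-treated cells and 17.8 and 24.3 CPM in untreated cells (log2 fold change 5.02 ± 0.50, adjusted p = 8.31e-08). Cyba, a subunit of NADPH oxidase, had 68.4, 111 and 66.7 CPM on day 1, 58.8 and 34.8 CPM in PlaB-treated cells and 1.53 and 2.43 CPM in untreated cells (log2 fold change 5.36 ± 0.51, adjusted p = 2.15e-08). The rule by which both genes were named required no overlap between day 1 and untreated libraries. Both kept their calls with the GC trend removed (log2 fold change 3.09 for Apoe and 3.49 for Cyba). Gapdh, a glycolytic enzyme, averaged 5769 CPM on day 1 and was higher by 3.65 ± 0.50, adjusted p = 4.46e-06, with PlaB at 2.72. Fth1, the heavy chain of ferritin, was higher by 2.84 ± 0.35, adjusted p = 6.66e-07, with PlaB at 2.33. Gapdh and Fth1 have many processed pseudogenes, so their reads may be split and their values are uncertain. Hspb1, a small heat shock protein, was also higher on day 1, at 4.38 ± 0.46, adjusted p = 1.23e-07. Eif5a, an elongation factor, was at 3.12 ± 0.50, adjusted p = 3e-05. Gpx1, which removes hydrogen peroxide, was at 2.55 ± 0.44, adjusted p = 6.48e-05. In PlaB-treated cells Hspb1, Eif5a and Gpx1 had log2 fold changes of 2.93, 2.46 and 2.33 over untreated cells. Selenom, a selenoprotein of the endoplasmic reticulum, stood at 3.25 ± 0.49, adjusted p = 9.2e-06, and Rcn3 and Icam1, both raised by PlaB, lost their day 1 calls (2.24 ± 0.52, adjusted p = 0.00129 for Rcn3 and 2.64 ± 0.60, adjusted p = 0.000924 for Icam1) with the GC trend removed (0.24, adjusted p = 0.742 for Rcn3 and 1.36, adjusted p = 0.0625 for Icam1).

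Components of the spliceosome, the machine PlaB acts on, were more often higher than lower. Of 41 tested core components 21 were higher and 6 lower on day 1, with a median log2 fold change of 0.92, where all tested genes have a median near 0. PlaB-treated cells had 15 higher and 2 lower. Removing the GC trend left 17 higher and 3 lower on day 1, with 21 that did not pass and a median of 0.56. Sf3b5, a small subunit of the complex PlaB binds, had 240.3, 238 and 215 CPM on day 1, 414 and 293 CPM in PlaB-treated cells and 33.1 and 38.6 CPM in untreated cells (log2 fold change 2.69 ± 0.31, adjusted p = 2.4e-07). Sf3b4, another subunit of that complex, had 130.1, 140.1 and 113 CPM on day 1, 15.6 and 15.8 CPM in PlaB-treated cells and 6.63 and 6.75 CPM in untreated cells (log2 fold change 4.25 ± 0.47, adjusted p = 1.58e-07). Snrpa, a protein of the U1 particle, was higher by 4.25 ± 0.31, adjusted p = 4.01e-10. Sf3b1, whose protein forms the PlaB pocket, had 588, 526 and 689 CPM on day 1, 650.2 and 743 CPM in PlaB-treated cells and 572 and 567 CPM in untreated cells, with a day 1 log2 fold change of 0.078 ± 0.22 that did not pass (adjusted p = 0.805) and one of 0.70, adjusted p = 0.0244, with the GC trend removed. Lower members included Snrpe and Snrpd1, ring proteins of the small nuclear particles, at -1.37 ± 0.28, adjusted p = 0.000393 and -1.27 ± 0.26, adjusted p = 0.000409, and the helicase Dhx15 at -1.33 ± 0.26, adjusted p = 0.000214. Sf3b6, the branch point contact of SF3B, was at -0.99 ± 0.25, adjusted p = 0.00289. The calls of Snrpe (-0.73, adjusted p = 0.0629) and Sf3b6 (-0.38, adjusted p = 0.256) ended with the GC trend removed. SR proteins and their kinases were mixed, with 3 of 22 higher and 5 lower, and with the GC trend removed 6 higher and 2 lower. Srsf1, a general splicing activator, was lower, at -1.15 ± 0.25, adjusted p = 0.000578, a call that ended with the GC trend removed (-0.44, adjusted p = 0.119), and Srrm2, a scaffold of nuclear speckles, was higher by 1.57 ± 0.26, adjusted p = 3.43e-05.

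Intron number was set beside these results because unspliced or badly spliced transcripts are a direct product of PlaB. The median log2 fold change of day 1 over untreated cells was -0.44 in 2694 genes with no intron, -0.16 with 1 to 2, 0.17 with 3 to 9 and 0.10 with 10 or more. For PlaB-treated over untreated cells the same medians were 0.33, -0.02, 0.04 and -0.13. Over all genes, those with no intron thus lay above the other classes in PlaB-treated cells and below them on day 1. Within protein-coding genes the day 1 medians were -0.05 with no intron and 0.11 with 10 or more, against 0.32 and -0.13 for PlaB. With the GC trend removed, the day 1 medians over all genes were -0.22, -0.10, 0.12 and -0.05 in the same order. In protein-coding genes they were 0.021, -0.034, 0.13 and -0.048, so genes with no intron were not the lowest class there. The PlaB medians of protein-coding genes were then 0.31, 0.042, 0.053 and -0.17, with no intron still highest. Gene-level counts do not separate spliced from unspliced reads, so splicing itself was not measured.

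Genes of the contractile cytoskeleton and the extracellular matrix were among the largest falls on day 1. Acta2 (chromosome 19, 34241090 to 34255590, GRCm38), smooth muscle actin, had 3.80, 4.00 and 0.139 CPM on day 1, 1511 and 2309 CPM in PlaB-treated cells and 426 and 637 CPM in untreated cells (log2 fold change -7.70 ± 0.74, adjusted p = 8.26e-07). Every day 1 library was far below both untreated libraries, though the rule that named Acta2 required a lack of overlap. PlaB-treated cells stood above untreated cells (log2 fold change 1.84 ± 0.64, adjusted p = 0.0437). Thbs1, the matrix protein thrombospondin, had 69.2, 58.8 and 25.5 CPM on day 1, 1505 and 2212 CPM in PlaB-treated cells and 3291 and 3479.5 CPM in untreated cells (log2 fold change -6.05 ± 0.76, adjusted p = 1.81e-05). Lox, an enzyme that cross-links collagen, was lower, at -6.37 ± 0.62, adjusted p = 5.5e-07. Of 38 tested fibroblast matrix genes, 0 were higher and 22 lower, with a median log2 fold change of -1.64 (28 lower with the GC trend removed). The fall was not uniform, as 16 members did not pass. Among these, Mmp3, Thbs2 and Dcn had estimates above untreated cells (log2 fold change 1.19, 0.87 and 0.39). In PlaB-treated cells 10 of the 38 genes were higher and 0 lower (4 and 0 with the GC trend removed). Collagen genes illustrate the range: Col1a2 stood at -4.34 ± 0.51, adjusted p = 3.05e-06, Col3a1 at -3.99 ± 0.33, adjusted p = 3.94e-09 and Col1a1 at -1.82 ± 0.43, adjusted p = 0.00126. Among 18 contractile and caveola genes 10 were lower and 1 higher, against 8 higher and 0 lower in PlaB-treated cells. Cald1, which binds actin and tropomyosin, stood at -3.13 ± 0.27, adjusted p = 4.79e-09. Anxa1, a membrane-binding protein, was at -3.02 ± 0.27, adjusted p = 9.02e-09. Flna, Anxa2 and Cnn2 of this list did not pass, with log2 fold changes of 0.52, 0.33 and 0.55. Genes of integrins and matrix adhesion were divided, with 9 of 23 lower and 5 higher (8 and 1 with the GC trend removed). Itgb1, the shared beta subunit of most matrix receptors, was lower, at -2.52 ± 0.27, adjusted p = 1.08e-07, Itgav at -2.90 ± 0.42, adjusted p = 1.68e-05, and Cd44, the hyaluronan receptor, at -3.00 ± 0.47, adjusted p = 6.04e-05. All of these genes are expressed by fibroblasts. Their fall moved with the summed feeder markers given above, but that sum contains the matrix genes named here and is no separate measure for them. The part of feeder cells in this fall was not tested.

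YAP targets, which respond to cell tension and contact, were mostly lower on day 1, with 9 of 15 tested members lower and 0 higher (median log2 fold change -1.18), against 5 higher and 2 lower in PlaB-treated cells. With the GC trend removed 14 of them were lower. The summed fibroblast matrix markers given above moved with these targets, lower on day 1 and highest in PlaB-treated cells, and their part was not tested. The promoters of members are shown here because the list is defined by TEAD factors, whose site has the core GGAATG, read on the other strand as CATTCC. Windows of 300 bases from 250 before to 50 after the transcription start come from RefSeq (GRCm38.p6), in lower case with the core in capitals. Ankrd1 lies at chr19:36119795-36120094 on the minus strand, Cyr61 (Ccn1 in RefSeq) at chr3:145649936-145650235 on the minus strand and Amotl2 at chr9:102717554-102717853 on the plus strand. Acta2, at chr19:34255324-34255623 on the minus strand, is no member of the list and is shown for its fall.
Ankrd1: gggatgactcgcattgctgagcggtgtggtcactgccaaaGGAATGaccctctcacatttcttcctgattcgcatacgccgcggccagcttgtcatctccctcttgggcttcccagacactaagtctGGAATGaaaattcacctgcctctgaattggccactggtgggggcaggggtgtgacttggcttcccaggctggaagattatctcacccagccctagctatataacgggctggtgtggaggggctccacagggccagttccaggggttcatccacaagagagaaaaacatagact
Cyr61: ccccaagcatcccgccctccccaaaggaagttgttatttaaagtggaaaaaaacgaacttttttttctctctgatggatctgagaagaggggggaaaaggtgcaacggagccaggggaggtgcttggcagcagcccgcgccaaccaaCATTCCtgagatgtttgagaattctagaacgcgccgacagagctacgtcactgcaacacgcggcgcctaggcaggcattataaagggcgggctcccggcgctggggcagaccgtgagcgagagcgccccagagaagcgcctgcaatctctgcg
Amotl2: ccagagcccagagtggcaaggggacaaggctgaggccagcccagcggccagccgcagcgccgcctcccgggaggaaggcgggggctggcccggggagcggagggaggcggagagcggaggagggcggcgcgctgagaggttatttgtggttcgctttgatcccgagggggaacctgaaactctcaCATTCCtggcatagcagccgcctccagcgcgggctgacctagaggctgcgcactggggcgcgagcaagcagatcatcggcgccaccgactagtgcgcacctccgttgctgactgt
Acta2: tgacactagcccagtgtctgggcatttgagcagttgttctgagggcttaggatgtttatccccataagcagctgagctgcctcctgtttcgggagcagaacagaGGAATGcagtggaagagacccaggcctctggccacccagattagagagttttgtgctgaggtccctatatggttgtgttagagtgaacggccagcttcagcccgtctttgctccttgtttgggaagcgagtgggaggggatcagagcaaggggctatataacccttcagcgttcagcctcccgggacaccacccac
The core was found in 8 of the 11 tested members that have a promoter in the table, and in 16.6% of all 27025 genes (14.7% of 32851 windows). A match describes the letters and does not show binding.

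Ankrd1, a nuclear and muscle ankyrin protein, had 1.01, 0.47 and 0.139 CPM on day 1, 84.2 and 146 CPM in PlaB-treated cells and 60.9 and 80.7 CPM in untreated cells (log2 fold change -6.92 ± 0.48, adjusted p = 2.26e-10). Ctgf, a secreted growth factor of the matrix and a standard YAP readout, had 9.50, 10.6 and 13.0 CPM on day 1, 2069.5 and 2376 CPM in PlaB-treated cells and 807 and 1128 CPM in untreated cells (log2 fold change -6.45 ± 0.42, adjusted p = 2.26e-10). For both genes all day 1 libraries lay below all untreated libraries, which the rule that named them required. Replicate 3 was the highest of the 3 day 1 libraries for Ctgf. Amotl2, a junction protein that holds YAP in the cytoplasm, stood at -2.67 ± 0.30, adjusted p = 1.86e-07. F3, the tissue factor of blood clotting, was at -3.80 ± 0.26, adjusted p = 2.19e-10. Cyr61, a relative of Ctgf, had 38.0, 59.0 and 12.2 CPM on day 1, 441 and 489 CPM in PlaB-treated cells and 71.9 and 79.3 CPM in untreated cells. Its call (log2 fold change -1.07 ± 0.38, adjusted p = 0.0261) ended with scaling by total counts, with only the libraries compared, or without untreated replicate 1 or 2 or day 1 replicate 3, with adjusted p from 0.0796 to 0.206 in these. Wwc1, Ajuba, Amotl1 and Ptpn14, which act upstream of YAP, did not pass, with log2 fold changes of -0.13, -0.45, -0.29 and -0.47. All 4 passed as lower with the GC trend removed, at -1.65, adjusted p = 0.000113 for Wwc1, -2.15, adjusted p = 3.62e-06 for Ajuba, -0.80, adjusted p = 0.0214 for Amotl1 and -1.17, adjusted p = 0.00228 for Ptpn14.

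**Figure D3:**
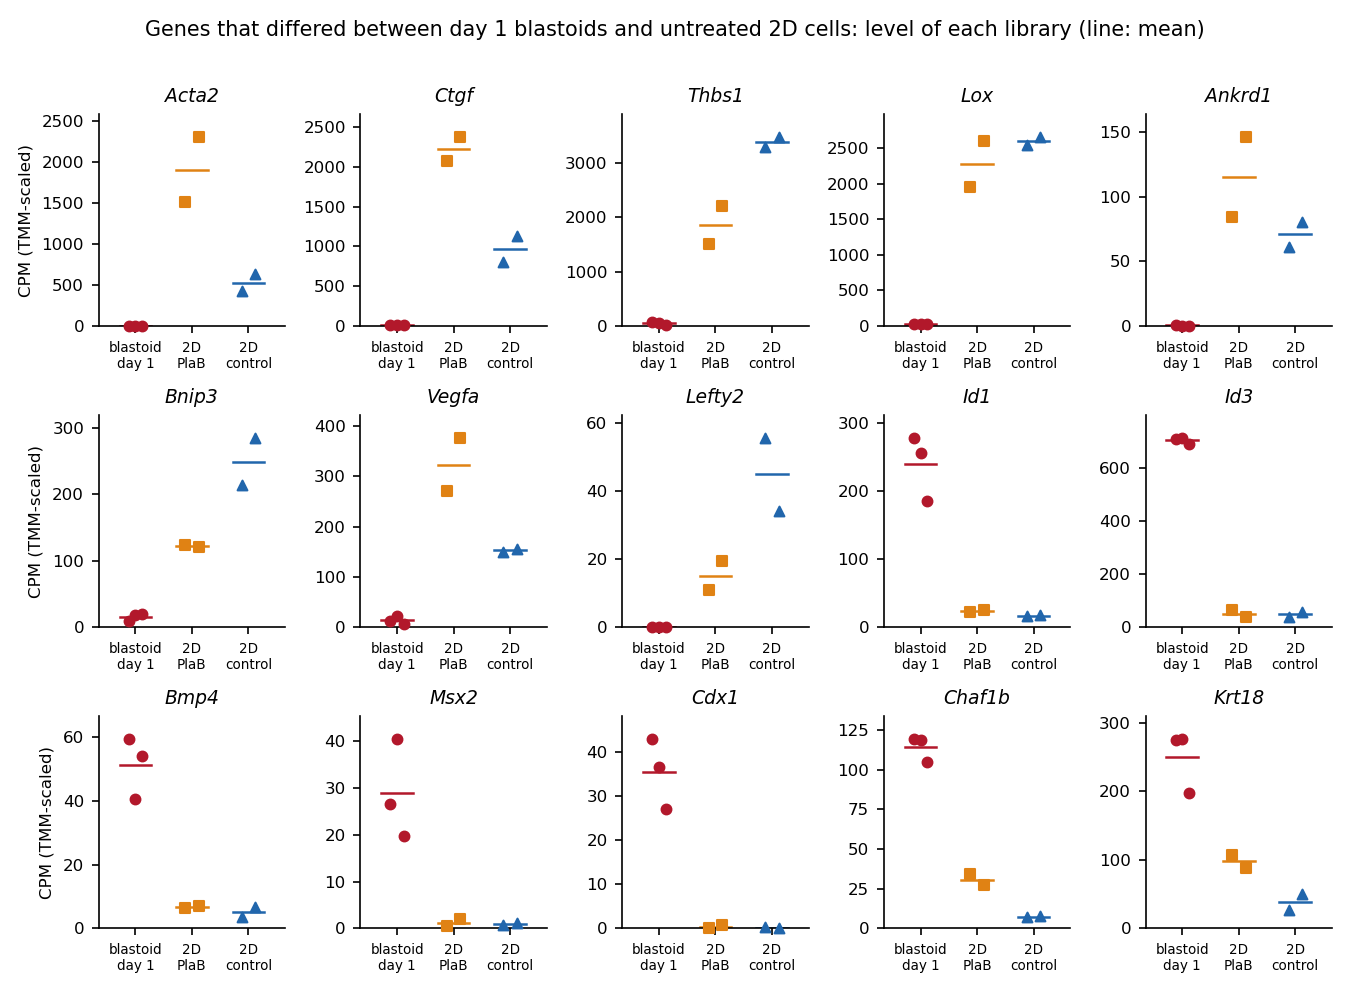
CPM per library (vertical axis, linear from 0, scaled per gene) of 15 genes that set day 1 apart, with day 1 blastoids, PlaB-treated cells and untreated cells from left to right, one point per library and a line at the mean. Acta2, Ctgf, Thbs1, Lox, Ankrd1, Bnip3, Vegfa and Lefty2 have all day 1 points below both untreated points, and Id1, Id3, Bmp4, Msx2, Cdx1, Chaf1b and Krt18 have them above.

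Most tested hypoxia-response genes, which the factor Hif1a switches on when oxygen is short, fell on day 1. Of 25 tested members 15 were lower and 0 higher, with a median log2 fold change of -1.40 (19 lower with the GC trend removed), against 6 lower and 3 higher in PlaB-treated cells. Hif1a binds the letters ACGTG, read on the other strand as CACGT, and the promoters of Bnip3 (chr7:138909457-138909756, minus strand) and P4ha1 (chr10:59323046-59323345, plus strand) are shown from the same RefSeq source, with these letters in capitals. In Bnip3 the capitals read as the motif on both strands.
Bnip3: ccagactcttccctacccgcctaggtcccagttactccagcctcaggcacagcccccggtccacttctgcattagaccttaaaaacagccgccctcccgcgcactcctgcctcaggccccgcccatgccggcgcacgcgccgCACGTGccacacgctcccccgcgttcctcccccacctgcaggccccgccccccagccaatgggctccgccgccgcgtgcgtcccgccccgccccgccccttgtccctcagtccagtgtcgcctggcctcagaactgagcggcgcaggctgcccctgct
P4ha1: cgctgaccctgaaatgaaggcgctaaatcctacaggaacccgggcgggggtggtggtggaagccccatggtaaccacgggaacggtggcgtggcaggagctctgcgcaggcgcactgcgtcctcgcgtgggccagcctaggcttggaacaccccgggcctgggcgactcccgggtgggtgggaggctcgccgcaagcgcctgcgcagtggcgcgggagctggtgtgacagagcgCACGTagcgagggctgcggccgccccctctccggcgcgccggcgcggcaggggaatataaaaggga
Such letters were found in 17 of the 21 tested members with a promoter in the table, and in 21.8% of all 27025 genes (19.6% of windows), and again a match does not show binding. Bnip3, a receptor for removal of mitochondria, had 9.63, 17.9 and 20.0 CPM on day 1, 124 and 121 CPM in PlaB-treated cells and 214 and 285 CPM in untreated cells (log2 fold change -3.99 ± 0.29, adjusted p = 4.01e-10). Vegfa, the vascular growth factor, had 11.4, 22.8 and 7.21 CPM on day 1, 270.5 and 377 CPM in PlaB-treated cells and 149.9 and 156 CPM in untreated cells (log2 fold change -3.51 ± 0.36, adjusted p = 8.55e-08). Day 1 and untreated libraries did not overlap for either gene, and for Vegfa the PlaB libraries were the highest of all. P4ha1, which hydroxylates collagen, stood at -2.81 ± 0.29, adjusted p = 5.66e-08. Adm, a vasodilator peptide, was at -4.64 ± 0.44, adjusted p = 1.93e-08. Ero1l, an oxidase of the endoplasmic reticulum, was at -3.07 ± 0.27, adjusted p = 7.64e-09. Both sensors of oxygen on the list were lower, Egln1 at -2.89 ± 0.31, adjusted p = 8.68e-08 and Egln3 at -1.89 ± 0.27, adjusted p = 4.35e-06. The transcript of Hif1a, whose protein and not its RNA is mainly controlled by oxygen, was lower, at -2.33 ± 0.27, adjusted p = 3.43e-07. Glycolytic genes, many of them also Hif1a targets, were divided, with 11 of 22 higher and 5 lower (6 and 5 with the GC trend removed). Eno1 (enolase), Tpi1 (triosephosphate isomerase) and Aldoa (aldolase) were higher by 2.95 ± 0.66, 1.82 ± 0.35 and 1.47 ± 0.30, while Hk2 (hexokinase), Slc2a1 (a glucose carrier) and Pgk1 (phosphoglycerate kinase) were lower, at -1.61 ± 0.23, -0.97 ± 0.26 and -0.98 ± 0.28. The call of Pgk1 ended without untreated replicate 2 (-0.84, adjusted p = 0.081). Oxygen was not recorded in the labels, and its part in these differences was not tested.

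In the Nodal pathway the feedback inhibitors and the ligand went in opposite directions. Lefty2, an inhibitor that Nodal signalling induces, had 0 counts in all 3 day 1 libraries, 10.8 and 19.4 CPM in PlaB-treated cells and 55.6 and 34.3 CPM in untreated cells. Its 345 counts in untreated cells make it 292-fold lower on day 1, against a floor of 3 counts over the group. The lower limit of its 95% counting interval was 236-fold. In PlaB-treated cells its log2 fold change over untreated cells was -1.57 ± 0.55, adjusted p = 0.0388. Lefty1, its paralog, had 0.38, 0.47 and 0.277 CPM on day 1, 6.91 and 1.19 CPM in PlaB-treated cells and 4.33 and 6.75 CPM in untreated cells (adjusted p = 0.00163). Skil, a repressor induced by the pathway, stood at -1.91 ± 0.22, adjusted p = 1.96e-07. Tdgf1, the coreceptor also called Cripto, stood at -1.48 ± 0.28, adjusted p = 0.000141. Smad3, a signal transducer, was at -1.32 ± 0.39, adjusted p = 0.0078, a call that ended without untreated replicate 2 (-1.04, adjusted p = 0.119). Nodal itself had 35.7, 38.8 and 19.3 CPM on day 1, 6.91 and 11.1 CPM in PlaB-treated cells and 7.65 and 8.37 CPM in untreated cells (log2 fold change 1.96 ± 0.41, adjusted p = 0.000393), a call that ended with the GC trend removed (0.57, adjusted p = 0.269). Foxh1, the DNA-binding partner of the Smads, had 476 counts on day 1 and 1 in untreated cells, a ratio of 188 (95% counting interval 33.5 to 7426), and 4.32 and 1.58 CPM in PlaB-treated cells. Over the 13 tested members, 8 were lower and 3 higher on day 1, against 3 lower and 1 higher in PlaB-treated cells.

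Id1, Id2 and Id3, immediate targets of BMP, were higher on day 1. Id1, an inhibitor of bHLH factors, had 278, 255 and 185 CPM on day 1, 21.6 and 25.7 CPM in PlaB-treated cells and 16.8 and 17.3 CPM in untreated cells (log2 fold change 3.81 ± 0.34, adjusted p = 1.02e-08). Id3, its close relative, had 709.8, 712 and 692 CPM on day 1, 64.4 and 36.7 CPM in PlaB-treated cells and 39.2 and 56.9 CPM in untreated cells (log2 fold change 3.87 ± 0.42, adjusted p = 1.5e-07). In both genes the PlaB libraries were near the untreated ones and the day 1 libraries stood above both. Id2 stood at 1.24 ± 0.22, adjusted p = 8.17e-05. The ligand Bmp4 had 59.4, 40.7 and 54.1 CPM on day 1, 6.48 and 7.11 CPM in PlaB-treated cells and 3.57 and 6.75 CPM in untreated cells (log2 fold change 3.32 ± 0.41, adjusted p = 5.69e-07), and the BMP target Msx2, a homeobox factor, had 26.5, 40.4 and 19.7 CPM on day 1, 0.432 and 1.98 CPM in PlaB-treated cells and 0.765 and 1.08 CPM in untreated cells (log2 fold change 4.93 ± 0.50, adjusted p = 5.05e-08). Receptors and transducers were lower: Bmpr2 stood at -2.90 ± 0.37, adjusted p = 1.58e-06, Bmpr1a at -1.13 ± 0.26, adjusted p = 0.00106, and Smad1 at -1.46 ± 0.37, adjusted p = 0.00254, and so was the inhibitor Smad7 at -2.05 ± 0.41, adjusted p = 0.000256. The call of Bmpr1a ended with the GC trend removed (-0.46, adjusted p = 0.1) and that of Smad1 without untreated replicate 2 (-1.11, adjusted p = 0.0753). Of 17 tested members 6 were higher and 4 lower, against 2 higher and 5 lower in PlaB-treated cells.

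Among Wnt targets 6 of 12 tested were higher and 1 lower on day 1, against 2 and 1 in PlaB-treated cells. Once the GC trend was removed, 3 were higher and 1 lower on day 1, against 1 higher and 3 lower in PlaB-treated cells. Cdx1, a posterior homeobox gene, had 688 counts on day 1 and 1 in untreated cells, a ratio of 271 (95% counting interval 48.5 to 10726), with 42.8, 36.4 and 27.1 CPM on day 1, 0 and 0.79 CPM in PlaB-treated cells and 0.255 and 0 CPM in untreated cells. Every day 1 library was above every other. Ccnd1, cyclin D1, stood at 2.68 ± 0.31, adjusted p = 2.36e-07, and Axin2, the feedback inhibitor of Wnt, had 4.94, 8.23 and 4.44 CPM on day 1, 0.864 and 1.98 CPM in PlaB-treated cells and 1.02 and 1.62 CPM in untreated cells (log2 fold change 2.11 ± 0.55, adjusted p = 0.00312). That call for Axin2 ended without untreated replicate 1 (1.82, adjusted p = 0.0628) and with the GC trend removed (0.99, adjusted p = 0.172). Lef1, a partner of beta-catenin, was lower, at -1.45 ± 0.35, adjusted p = 0.00186, and Tcf7 and Lgr5, likewise Wnt targets, did not pass (0.19 and 0.64). Genes of FGF signalling and feedback had fewer calls, with 4 of 14 lower and 1 higher, and 9 lower and 1 higher with the GC trend removed. The inhibitors Spred1 and Spred2 were lower at -1.48 ± 0.20, adjusted p = 2.32e-06 and -1.85 ± 0.26, adjusted p = 4.84e-06, and the factor Etv4, an FGF target, was higher at 3.24 ± 0.51, adjusted p = 1.44e-05. The phosphatase Dusp6 was at -0.59 ± 0.23, adjusted p = 0.0413, but its call ended on leaving out any 1 of the 5 libraries (adjusted p = 0.0612 to 0.224), with scaling by total counts (-0.34, adjusted p = 0.263), with no filter on low counts (-0.54, adjusted p = 0.205) and with the replicate block (-0.56, adjusted p = 0.0708). Spry2 and Spry4, other feedback inhibitors, had log2 fold changes of -0.46 and 0.34 and did not pass.

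Of 36 tested naive and general markers 10 were higher and 8 lower on day 1, against 6 higher and 13 lower in PlaB-treated cells. The day 1 counts were near the shares among all tested genes (22.7% higher and 19.1% lower). With the GC trend removed 12 were higher and 10 lower on day 1, where 16.1% of all tested genes went each way. The median log2 fold change of the list then moved from 0.20 to -0.24. Utf1, a chromatin protein of undifferentiated cells, had 346, 256 and 231 CPM on day 1, 59.6 and 27.3 CPM in PlaB-treated cells and 4.33 and 7.56 CPM in untreated cells (log2 fold change 5.55 ± 0.49, adjusted p = 1.22e-08). Dppa5a, an RNA-binding protein of the same cells, had 4069, 3807 and 5216 CPM on day 1, 14310.0 and 14482 CPM in PlaB-treated cells and 21469 and 19531 CPM in untreated cells (log2 fold change -2.23 ± 0.34, adjusted p = 1.27e-05). Its day 1 and untreated libraries did not overlap. Tdh, a threonine dehydrogenase on which mouse stem cells depend, stood at 4.00 ± 0.48, adjusted p = 8.49e-07. Tcl1, a coactivator of Akt, was at 2.19 ± 0.35, adjusted p = 2.15e-05. Gdf3, a Nodal-related ligand, was at 1.84 ± 0.34, adjusted p = 0.000109. Tfcp2l1, a naive transcription factor, was at 0.97 ± 0.21, adjusted p = 0.000751. Sox2, a core pluripotency factor, had 52.4, 43.7 and 46.7 CPM on day 1, 102 and 104 CPM in PlaB-treated cells and 110.3 and 107 CPM in untreated cells (log2 fold change -1.19 ± 0.32, adjusted p = 0.00376). Klf4, another core factor, had 48.0, 41.1 and 53.3 CPM on day 1, 146 and 144 CPM in PlaB-treated cells and 136 and 103 CPM in untreated cells (log2 fold change -1.33 ± 0.30, adjusted p = 0.00107). Nanog had 248, 309.8 and 379.7 CPM on day 1, 192 and 243 CPM in PlaB-treated cells and 201 and 185 CPM in untreated cells, and its call (log2 fold change 0.69 ± 0.24, adjusted p = 0.0221) ended without untreated replicate 1 (adjusted p = 0.094) or 2 (0.15), without day 1 replicate 3 (0.088), with upper-quartile scaling (0.59, adjusted p = 0.0509), in thinned libraries (0.60, adjusted p = 0.0691) and with the replicate block (0.59, adjusted p = 0.0563). Pou5f1, which encodes Oct4, was counted at only 51.7, 31.7 and 32.7 CPM on day 1, 22.5 and 11.5 CPM in PlaB-treated cells and 0.51 and 0.54 CPM in untreated cells. Of its exon bases 14.1% overlap Gm19553 on the other strand, where reads may have been left out as ambiguous. Why the other exon bases gave so few counts was not tested, and the fold of Pou5f1 is uncertain. Zfp57, which keeps imprints methylated, had 89.6, 87.9 and 65.6 CPM on day 1, 5.18 and 6.32 CPM in PlaB-treated cells and 25.2 and 22.4 CPM in untreated cells (log2 fold change 1.76 ± 0.29, adjusted p = 2.45e-05), the order running from day 1 through untreated to PlaB-treated cells. Zfp42 and Klf5 had log2 fold changes of 0.20 ± 0.25 and -0.60 ± 0.30 and did not pass.

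Markers of later pluripotent states were also divided, with 7 of 19 higher and 6 lower (3 and 12 with the GC trend removed). Dnmt3b, a DNA methyltransferase, stood at 1.59 ± 0.25, adjusted p = 1.35e-05. Car4, a carbonic anhydrase, was at 2.96 ± 0.58, adjusted p = 0.000478. Otx2, a head and epiblast factor, had 5.19, 4.00 and 3.19 CPM on day 1, 6.48 and 6.72 CPM in PlaB-treated cells and 13.0 and 12.1 CPM in untreated cells (log2 fold change -1.60 ± 0.38, adjusted p = 0.00136), a call lost in libraries thinned to one depth (-1.22, adjusted p = 0.0607). Fgf5, the classical primed marker, was low throughout, with 6 counts on day 1 and 21 in untreated cells. Genes of the 2C stage, which mark a rare totipotent-like state, passed in 3 of 28 tested members, all higher, a smaller share than the 22.7% of all tested genes. Zscan4c, the best known of them, had 27.0, 2.35 and 58.8 CPM on day 1, 42.8 and 32.8 CPM in PlaB-treated cells and 35.2 and 26.2 CPM in untreated cells (log2 fold change -0.037 ± 0.76, adjusted p = 0.977). Day 1 replicate 2 was far below its partners, and reads of the Zscan4 family can be split between near-identical copies.

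Trophectoderm genes were higher in 18 of 34 tested members and lower in 1, with a median log2 fold change of 1.45 (14 higher and 3 lower with the GC trend removed), against 8 higher and 4 lower in PlaB-treated cells (5 and 6 with the GC trend removed). Krt18, a keratin of simple epithelia, had 275, 276 and 197 CPM on day 1, 107 and 88.5 CPM in PlaB-treated cells and 26.3 and 49.7 CPM in untreated cells (log2 fold change 2.72 ± 0.36, adjusted p = 1.88e-06). Krt8, its partner in keratin filaments, had 101, 111 and 56.7 CPM on day 1, 60.1 and 59.7 CPM in PlaB-treated cells and 12.5 and 16.2 CPM in untreated cells (log2 fold change 2.64 ± 0.36, adjusted p = 2.39e-06). Gata2, a trophoblast transcription factor, had 10.3, 10.6 and 9.02 CPM on day 1, 0 and 0.395 CPM in PlaB-treated cells and 0.255 and 1.35 CPM in untreated cells (log2 fold change 3.62 ± 0.50, adjusted p = 3.32e-06). Day 1 libraries lay above all untreated libraries for these 3 genes, and for Gata2 the PlaB libraries were below the day 1 libraries as well. Lgals3, a galectin, stood at 2.63 ± 0.29, adjusted p = 1.51e-07. Ptges, a prostaglandin synthase, was at 2.22 ± 0.41, adjusted p = 0.000127. The 1 lower member was S100a11 (log2 fold change -1.51, adjusted p = 0.000666). Tfap2c and Tead4 did not pass, but were called lower with the GC trend removed (-1.07, adjusted p = 0.02 and -1.22, adjusted p = 0.0168). Eomes and Tfap2a did not pass in either fit. Cdx2, the defining trophectoderm factor, had 16 counts over the 3 day 1 libraries and 0 in untreated cells and was too low to be tested. Gata3, also a defining factor, had 2.79, 3.29 and 2.22 CPM on day 1, 2.59 and 1.58 CPM in PlaB-treated cells and 3.06 and 3.51 CPM in untreated cells, a difference that did not pass (adjusted p = 0.661).

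Junction genes were higher in 13 of 27 tested members and lower in 4, but in 6 and 5 with the GC trend removed. Cldn4 and Cldn7, claudins that seal the gaps between cells, stood at 5.00 ± 0.66, adjusted p = 1.85e-06 and 3.25 ± 0.45, adjusted p = 3.48e-06. Cldn6, a claudin of early embryos, was at 2.19 ± 0.41, adjusted p = 0.000148. Cldn3 had 186 counts on day 1 and 1 in untreated cells, a ratio of 73.3 (95% counting interval 13.0 to 2911). Ctnnd1, a catenin bound to cadherins, was lower, at -1.64 ± 0.30, adjusted p = 8.68e-05, and so was Cdh2, N-cadherin, at -1.35 ± 0.37, adjusted p = 0.00466. Cdh1, E-cadherin, did not pass, at -0.36 ± 0.33 (95% interval -1.03 to 0.31). Sodium pump and water channel genes, which fill the blastocyst cavity, were higher in 6 of 8 and lower in none, but higher in 3 with the GC trend removed. Aqp3, a channel for water and glycerol, was higher by 1.67 ± 0.42, adjusted p = 0.00256, and its call ended with the GC trend removed (0.84, adjusted p = 0.0947) and without untreated replicate 2 (1.45, adjusted p = 0.0526). Primitive endoderm genes were higher in 4 of 22 and lower in 2, below the shares of all tested genes (22.7% higher and 19.1% lower). With the GC trend removed 2 were higher and 8 lower, where 16.1% of all tested genes went each way. Cited1, a transcriptional cofactor, was higher by 4.30 ± 0.50, adjusted p = 3.06e-07, while the basement membrane genes Lamb1 and Col4a1 were lower, at -1.95 ± 0.30, adjusted p = 1.14e-05 and -1.15 ± 0.33, adjusted p = 0.00604. The call of Col4a1 ended without untreated replicate 2 (-0.91, adjusted p = 0.0929). Gata6, a defining factor of this lineage, had 1.77, 4.00 and 2.64 CPM on day 1, 2.59 and 3.16 CPM in PlaB-treated cells and 3.06 and 6.48 CPM in untreated cells, a difference that did not pass (adjusted p = 0.199) but was called lower with the GC trend removed (-2.02, adjusted p = 0.00264). Gata4 and Sox17, also defining factors, had 0.253, 1.65 and 0.555 CPM and 0, 4.00 and 0 CPM on day 1. Basement membrane genes are also expressed by the feeder cells.

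DNA replication genes were higher in 23 of 35 tested members and lower in 0, with a median log2 fold change of 0.92, against 6 higher and 3 lower in PlaB-treated cells. Chaf1b, a subunit of the complex that loads histones onto new DNA, had 119, 119 and 105 CPM on day 1, 34.1 and 27.3 CPM in PlaB-treated cells and 6.88 and 7.83 CPM in untreated cells (log2 fold change 3.96 ± 0.41, adjusted p = 7.31e-08). The day 1 libraries were the highest of the 3 groups without overlap. Rfc2, a clamp loader, stood at 3.02 ± 0.32, adjusted p = 9.83e-08. Ccne1, cyclin E1, was at 1.95 ± 0.33, adjusted p = 3.98e-05, and the helicase subunits Mcm5 and Mcm7 at 1.42 ± 0.31, adjusted p = 0.00059 and 1.90 ± 0.34, adjusted p = 7.89e-05. Chaf1a, the larger partner of Chaf1b, was higher by 5.82 ± 0.67, adjusted p = 2.8e-07, though 52.5% of its exon bases overlap Ubxn6 on the other strand. Genes of G2 and M phase were higher in 11 and lower in 7 of 32, with the GC trend removed higher in 10 and lower in 0. In PlaB-treated cells 16 of them were lower and 4 higher. Aurka, a mitotic kinase, had 236, 214 and 194 CPM on day 1, 83 and 85.3 CPM in PlaB-treated cells and 44.3 and 43.2 CPM in untreated cells (log2 fold change 2.30 ± 0.31, adjusted p = 2.55e-06). Plk1, a second mitotic kinase, stood at 2.28 ± 0.34, adjusted p = 9.21e-06. Cdc20, an activator of the anaphase complex, was at 3.05 ± 0.45, adjusted p = 1.38e-05. Top2a, the DNA-untangling topoisomerase, was lower, at -0.94 ± 0.21, adjusted p = 0.00085, a call that ended with the GC trend removed (-0.44, adjusted p = 0.113). Among regulators of G1, Ccnd3 (cyclin D3) and Cdk4, the kinase of the D cyclins, were higher by 4.15 ± 0.41, adjusted p = 3.39e-08 and 3.01 ± 0.37, adjusted p = 8.35e-07, and Rb1, the retinoblastoma protein that they inactivate, was lower, at -1.99 ± 0.34, adjusted p = 4.68e-05. Histone cluster genes, most of which lack a poly(A) tail, were higher in 14 and lower in 0 of 34, but higher in 5 and lower in 5 with the GC trend removed, and their reads can be shared between copies.

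Lysosomal genes were higher in 20 of 28 tested members and lower in 1 (median log2 fold change 1.44), against 13 higher and 0 lower in PlaB-treated cells. Ctsa, a protective protease of the lysosome, had 136, 146 and 66.4 CPM on day 1, 55.7 and 64.0 CPM in PlaB-treated cells and 9.68 and 13.2 CPM in untreated cells (log2 fold change 3.34 ± 0.40, adjusted p = 4.66e-07). Ctsb, a cysteine protease, stood at 2.11 ± 0.38, adjusted p = 8.2e-05. Lamp1, a membrane glycoprotein, was at 2.07 ± 0.30, adjusted p = 6.62e-06. In cholesterol synthesis 12 of 23 genes were higher and 0 lower, against 11 and 1 in PlaB-treated cells. Mvd, a decarboxylase early in the pathway, had 33.6, 40.4 and 21.6 CPM on day 1, 7.78 and 5.93 CPM in PlaB-treated cells and 1.27 and 1.35 CPM in untreated cells (log2 fold change 4.57 ± 0.47, adjusted p = 6.18e-08). Fdft1, squalene synthase, stood at 1.98 ± 0.30, adjusted p = 1.02e-05. Proteasome subunits were higher in 16 of 31 and lower in 2, and aminoacyl-tRNA synthetases, which charge tRNAs, in 12 and 1 of 20. Psmd4, a ubiquitin receptor of the proteasome, stood at 2.76 ± 0.33, adjusted p = 5.34e-07, and the synthetases Farsa and Vars at 3.56 ± 0.35, adjusted p = 3.04e-08 and 3.84 ± 0.47, adjusted p = 6.35e-07.

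Ribosomal protein genes of the cytosol went the other way, with 42 of 79 lower and 10 higher, against 0 lower and 17 higher in PlaB-treated cells. With the GC trend removed 45 were lower and 1 higher, and most have pseudogene copies that can take reads. Gas5, a host gene of small nucleolar RNAs that shares their translation control, had 178, 223 and 223 CPM on day 1, 353 and 359.9 CPM in PlaB-treated cells and 707 and 647 CPM in untreated cells (log2 fold change -1.70 ± 0.26, adjusted p = 1.35e-05). Nuclear genes of oxidative phosphorylation were divided, 19 higher and 26 lower of 71, against 21 higher and 1 lower in PlaB-treated cells. With the GC trend removed 14 were higher and 31 lower on day 1, with a median log2 fold change of -0.61. PlaB-treated cells then had 14 higher and 0 lower. Atp5d, a subunit of ATP synthase, was higher, at 4.42 ± 0.34, adjusted p = 9.67e-10. Uqcrc1, of complex III, was higher, at 3.73 ± 0.46, adjusted p = 1.02e-06. Cox6c, of complex IV, was lower, at -1.68 ± 0.27, adjusted p = 1.96e-05. Uqcrb, also of complex III, was lower, at -1.49 ± 0.28, adjusted p = 0.000123. Reads of the mitochondrial genome were 2.60, 2.81 and 4.92% of counts on day 1, 9.14 and 9.38% in PlaB-treated cells and 5.74 and 6.18% in untreated cells, without overlap between groups. The exact two-sided permutation test over day 1 and untreated libraries gave p = 0.2 for this share, where the smallest p that 3 against 2 libraries allow is 0.1. mt-Co1, a catalytic subunit of complex IV, had 5022, 6031 and 9609 CPM on day 1, 28167 and 32517 CPM in PlaB-treated cells and 19383 and 20490.0 CPM in untreated cells (log2 fold change -1.53 ± 0.33, adjusted p = 0.000609). Of 11 tested mitochondrially encoded genes 0 were higher and 4 lower on day 1, with a median log2 fold change of -0.76. With the GC trend removed 2 were higher and 1 lower, and the median was 0.18, so the direction for the list depends on that trend.

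**Figure D4:**
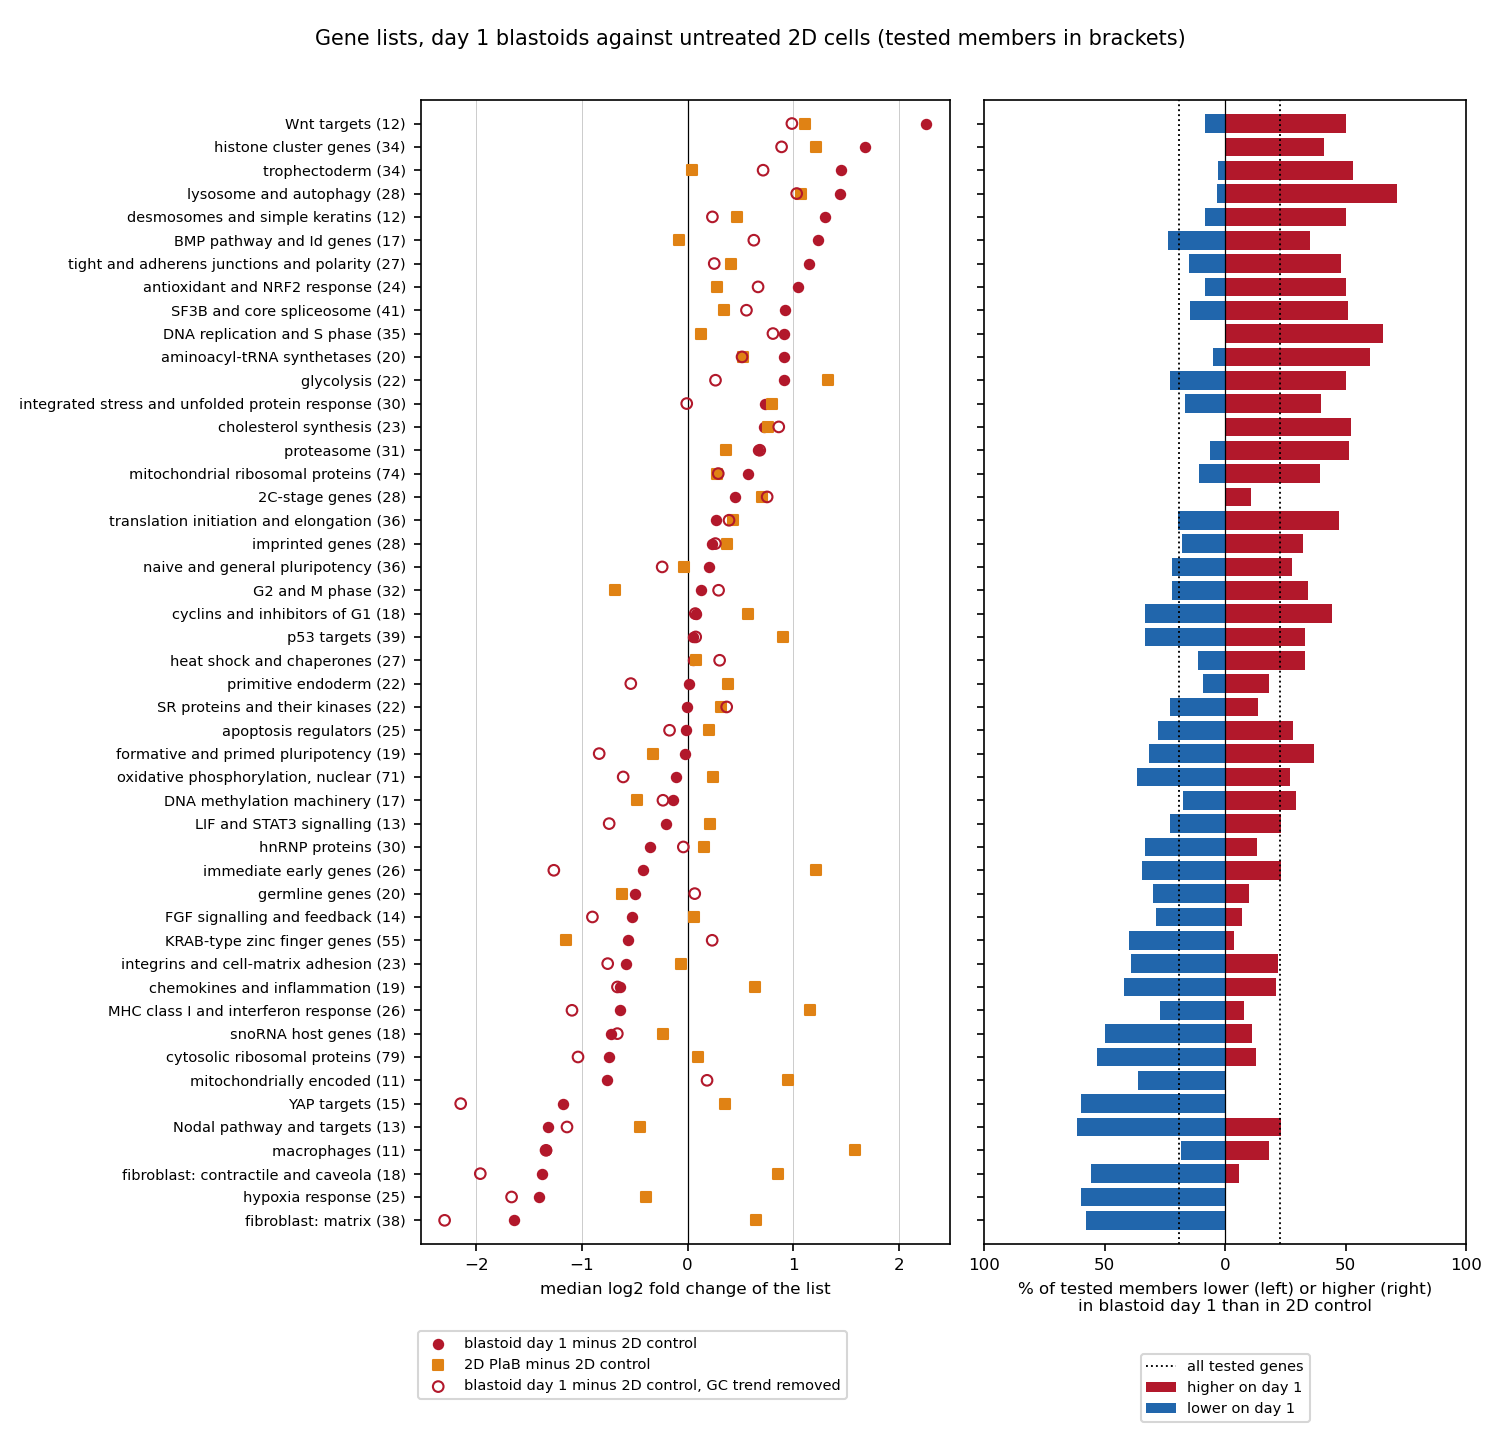
Left, median log2 fold change (horizontal axis) of each gene list with at least 10 tested members, one row per list, for day 1 over untreated cells, for day 1 over untreated cells with the GC trend removed, and for PlaB-treated over untreated cells. Right, percent of members higher or lower on day 1 than in untreated cells at an adjusted p under 0.05, with dotted lines at the share among all tested genes (22.7% higher and 19.1% lower).

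Among named protein-coding genes that were measured in both groups, the largest rises on day 1 were those of Ube2m, Utf1, Cyba, Exosc5, Apoe, Acd, Ppp5c, Tubg1, Phlda3, Rab1b, Vps72 and Ube2s. Ube2m, the enzyme that passes NEDD8 to cullins, had 73.7, 98.5 and 50.8 CPM on day 1, 8.64 and 9.09 CPM in PlaB-treated cells and 0.51 and 2.43 CPM in untreated cells (log2 fold change 5.66 ± 0.52, adjusted p = 1.46e-08). Exosc5, a subunit of the RNA exosome, stood at 5.03 ± 0.53, adjusted p = 1.27e-07. Tubg1, the gamma-tubulin of spindle poles, was at 4.81 ± 0.51, adjusted p = 8.77e-08. Vps72, which loads a histone variant, was at 4.64 ± 0.64, adjusted p = 4.53e-06. The others had log2 fold changes of 4.85 for Ppp5c, 4.73 for Rab1b, 4.64 for Ube2s and 4.96 for Acd, of whose exon bases 33.3% overlap Carmil2. The largest falls included those of Acta2, Ankrd1, Pappa, Col8a1, Ctgf, Prss23, Lox, Thbs1, Tnfrsf11b, Wisp1 and Htr1b. Pappa, a protease that frees insulin-like growth factors, stood at -6.64 ± 0.67, adjusted p = 1.08e-07. Col8a1, a short-chain collagen, was at -6.55 ± 0.66, adjusted p = 3.19e-07. Tnfrsf11b, a decoy receptor for RANKL, was at -5.86 ± 0.78, adjusted p = 2.7e-06. The remaining falls were -6.43 for the serine protease Prss23, -5.84 for the matrix protein Wisp1 and -5.78 for the serotonin receptor Htr1b. The summed feeder markers fell on day 1 as well, and the part of feeder cells in these falls was not tested. Fgl2 had 0 counts on day 1 and 272 in untreated cells, so it was 230-fold lower against a floor of 3 counts (lower 95% counting limit 186). Il1b had 3 counts on day 1 and 153 in untreated cells, a ratio of untreated over day 1 of 129 (95% counting interval 43.5 to 634), and Sprr2k had 1 on day 1 and 307 in untreated cells, a ratio in the same direction of 779 (95% counting interval 139 to 30864). Of genes with fewer than 10 counts over the untreated libraries, the most abundant on day 1 included Sfn, an epithelial 14-3-3 protein, with 1141 counts on day 1 and 9 in untreated cells, Yif1b and Zfp428. Yif1b, of vesicle transport, had 1018 counts on day 1 and 8 in untreated cells. The zinc finger gene Zfp428 had 952 counts on day 1 and 4 in untreated cells.

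By CPM, which is not adjusted for transcript length, the highest genes that rose at least 2-fold were Gapdh, Actb, Hsp90ab1, Fth1, Rplp0 and Ubb, and the highest that fell were Dppa5a, mt-Co1, Tmsb4x, Ppia, Npm1 and Rpl32. Actb, cytoplasmic actin, had 4329.9, 4502 and 4433 CPM on day 1, 5132 and 4213 CPM in PlaB-treated cells and 1467 and 1601 CPM in untreated cells (log2 fold change 1.53 ± 0.28, adjusted p = 9.84e-05). Tmsb4x, which holds free actin monomers, had 1466, 1913 and 1319.5 CPM on day 1, 10547 and 12727 CPM in PlaB-treated cells and 15245 and 17660.0 CPM in untreated cells (log2 fold change -3.39 ± 0.33, adjusted p = 3.35e-08). These actin genes thus moved in opposite directions on day 1. Hsp90ab1, a chaperone, stood at 1.05 ± 0.32, adjusted p = 0.0094. Ubb, polyubiquitin, was at 1.82 ± 0.48, adjusted p = 0.00413, and both calls ended with the GC trend removed (0.61, adjusted p = 0.0998 for Hsp90ab1, 0.81, adjusted p = 0.114 for Ubb) and without untreated replicate 1 (0.97, adjusted p = 0.105 for Hsp90ab1, 1.63, adjusted p = 0.0768 for Ubb). Npm1, a nucleolar chaperone, stood at -1.14 ± 0.25, adjusted p = 0.000844, ending likewise with the GC trend removed (-0.55, adjusted p = 0.116). Rpl32 was at -1.29 ± 0.41, adjusted p = 0.0144, and lost its call without untreated replicate 1 (adjusted p = 0.093) or 2 (0.055). Ppia, cyclophilin A, was at -1.24 ± 0.37, adjusted p = 0.00893, and lost its call without untreated replicate 1 (0.054). Gapdh, Actb, Hsp90ab1, Fth1, Rplp0, Ubb, Tmsb4x, Ppia, Npm1 and Rpl32 have processed pseudogenes or near-identical copies. Whether copies of Dppa5a and mt-Co1 take reads was not looked at.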

How the data were processed

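Per the submitters' processing notes, STAR 2.7.10b aligned the reads (genome build mm10) and HTSeq 0.13.5 counted them per gene. The authors deposited raw counts per gene symbol in 2 tables, used here as deposited and joined by symbol. Which annotation and strandedness HTSeq used is not given in the sources used here, and overlapping and antisense genes are therefore uncertain. Of 54352 symbols, 53707 matched 1 gene of GENCODE M21 (GRCm38; 38 through an older symbol), 106 several and 539 none, and GC content, introns and coordinates came from that release.

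All 19 libraries in 7 groups, as labelled, entered one fit in edgeR 4.0.16 (filterByExpr, minimum count 10, minimum total 15, TMM scaling, quasi-likelihood F-test, R 4.3.3), which gave a biological coefficient of variation of 0.25. Benjamini-Hochberg adjustment ran over the 16304 tested genes, and adjusted p-values in the text come from this test. Errors beside log2 fold changes are standard errors, and CPM values are TMM-scaled. For the GC trend, a lowess curve (span 0.3) of log2 level on GC content was taken out of each library as an offset. Replicate numbers only name libraries in their own table, so nothing was paired. The test was tried on simulated counts with known changes. Alternatives used limma 3.58.1 and DESeq2 1.42.0.

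The members and the 52 gene lists were chosen with earlier results of these data known, and Ddit4l, Cenpe and a few further list members were named after their values were seen. The other named genes follow fixed rules: 12 per direction with the largest change, at least 20 CPM in the higher group, at least 10 counts in the lower and no overlap between groups; 4 per direction with fewer than 10 counts in the lower group; 6 per direction by CPM among changes of at least 2-fold; 6 per direction for PlaB; up to 6 per list; and a fixed set. A few genes that these rules name are not reported here. Counting intervals (95%) and floors cover counting error only. R, edgeR and Python 3.11.15 made the results and figures.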

Additional observations from a re-analysis of the deposited data

How the results depend on the processing

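Direction and call counts were recomputed under 20 alternatives fixed with the design. For day 1 against untreated cells, genes higher ranged from 2440 to 3611 and genes lower from 1923 to 3055 when one library of either group was left out. For PlaB-treated against untreated cells the same ranges were 944 to 2192 and 1297 to 2168, with the lowest values without untreated replicate 1, where a lone library is assumed to vary like the other groups. A replicate block, where libraries share only a number (correlations of deviations -0.07 to 0.07), gave 6288 calls (3477 higher and 2811 lower), and the block together with the removed GC trend gave 2359 higher genes. Thinning to the smallest total left 2349 genes higher on day 1 than in PlaB-treated cells. All other alternatives kept these 6 counts within 1.5 times. Of the single genes, Zfp808 changed sign with the GC trend removed, to 0.65 with an adjusted p of 0.038. Where leaving out 1 library or removing the GC trend ended a call named in the text, the value stands beside it. The block with the GC trend removed also ended the calls of Snrpd1 (-0.63, adjusted p = 0.0893), Uqcrb (-0.63, adjusted p = 0.0912), Gpx1 (0.98, adjusted p = 0.063), Bst2 (0.80, adjusted p = 0.0563) and Plk2 (-0.60, adjusted p = 0.0588). Of genes that did not pass, Egr1, Pawr, Klf5, Ccl2 and Cxcl1 passed with only the 5 libraries compared, Flna with scaling by total counts, and Cnn2 with that scaling or without day 1 replicate 3. Zfp808 passed as lower without day 1 replicate 3 (-0.78, adjusted p = 0.0411). The cause was not tested in any of these. Few libraries, 2 in each 2D group, limit what could be detected at low counts.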

Other observations

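Genes of antigen presentation and the interferon response were more often lower than higher on day 1 and more often higher than lower in PlaB-treated cells. Of 26 tested members 7 were lower and 2 higher on day 1, against 2 lower and 9 higher in PlaB-treated cells. With the GC trend removed these were 11 lower and 1 higher on day 1, against 2 lower and 4 higher in PlaB-treated cells. B2m, the shared light chain of MHC class I, had 592, 723 and 549 CPM on day 1, 4389.5 and 6120.1 CPM in PlaB-treated cells and 4328 and 4434 CPM in untreated cells (log2 fold change -2.82 ± 0.29, adjusted p = 7.02e-08). H2-K1, a class I heavy chain, stood at -1.19 ± 0.30, adjusted p = 0.00218. Ifitm3, a membrane protein that blocks virus entry, was at -1.43 ± 0.31, adjusted p = 0.000578, while Bst2, the tether of budding viruses, was higher by 2.02 ± 0.34, adjusted p = 3.72e-05. Feeder markers moved with these genes, as given above, and their part was not tested. Among chemokines and inflammation genes 8 of 19 were lower and 4 higher (5 and 1 with the GC trend removed). Il6, an interleukin, had 7.22, 27.5 and 23.4 CPM on day 1, 154 and 126 CPM in PlaB-treated cells and 162 and 188 CPM in untreated cells (log2 fold change -3.19 ± 0.40, adjusted p = 1.19e-06). Csf1, the growth factor of macrophages, stood at -2.27 ± 0.33, adjusted p = 5.48e-06. Relb, an NF-kappaB subunit, was at 2.76 ± 0.41, adjusted p = 8.75e-06. The chemokines Ccl2 and Cxcl1 did not pass, at -0.45 and 0.99. For this list, too, the part of feeder cells was not tested.

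Immediate early genes, which answer serum and stress within minutes, were higher in 6 and lower in 9 of 26 tested members on day 1, against 15 higher and 0 lower in PlaB-treated cells. With the GC trend removed 1 was higher and 13 lower on day 1, against 8 higher and 1 lower in PlaB-treated cells. The summed feeder markers were also lower on day 1 and highest in PlaB-treated cells, and their part was not tested. Fosl2, of the AP-1 family, had 4.81, 7.99 and 4.30 CPM on day 1, 107 and 134 CPM in PlaB-treated cells and 21.7 and 33.5 CPM in untreated cells (log2 fold change -2.31 ± 0.36, adjusted p = 1.4e-05). Ier2 stood at 3.67 ± 0.42, adjusted p = 2.11e-07 and Ier5 at -3.05 ± 0.46, adjusted p = 9.24e-06, while Fos did not pass, at -0.16 ± 0.31 (95% interval -0.81 to 0.48), nor did Egr1, at -0.79 ± 0.32. Egr1 was lower with the GC trend removed (-2.35, adjusted p = 9.15e-05). Germline genes were lower in 6 and higher in 2 of 20 (3 and 3 with the GC trend removed). Sycp1, of the synaptonemal complex, was at -2.10 ± 0.26, adjusted p = 7.59e-07. Dazl, an RNA-binding protein of germ cells, was at -1.38 ± 0.25, adjusted p = 0.00011, a call that ended with the GC trend removed (-0.46, adjusted p = 0.228). Neural markers were lower in 4 and higher in 1 of 8. Nes, nestin, was at -3.51 ± 0.44, adjusted p = 9.51e-07. Sox11, a SoxC factor, was at -2.47 ± 0.28, adjusted p = 2.66e-07. Whether feeder cells had a part in the fall of Nes or Sox11 was not tested. Imprinted genes were higher in 9 and lower in 5 of 28, where 22.7% of all tested genes were higher and 19.1% lower. The paternally expressed Peg10 had 62.1, 75.9 and 127 CPM on day 1, 11.2 and 10.7 CPM in PlaB-treated cells and 10.2 and 11.1 CPM in untreated cells (log2 fold change 3.06 ± 0.37, adjusted p = 5.59e-07), and the maternally expressed Phlda2 had 439, 654 and 415 CPM on day 1, 175 and 173 CPM in PlaB-treated cells and 42.6 and 55.3 CPM in untreated cells (log2 fold change 3.36 ± 0.51, adjusted p = 2.66e-05). Grb10, a growth inhibitor, stood at -1.77 ± 0.21, adjusted p = 4.62e-07, and the long noncoding RNA Meg3 at -1.79 ± 0.37, adjusted p = 0.000396.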
